A study of Mus musculus with 8 samples.

Results

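The 10 genes described here encode the vascular endothelial growth factors VEGF-A, VEGF-B and VEGF-C (Vegfa, Vegfb, Vegfc), their receptors (Flt1, Kdr, Flt4), the angiopoietins (Angpt1, Angpt2) and the Tie receptors (Tek, Tie1) of the mouse. They were chosen by name and not by a threshold on their values, and all 10 were found among the 17488 genes of the deposited table. RNA was sequenced from whole abdominal tumours of TH-MYCN homozygotes, mice that develop neuroblastoma because the tyrosine hydroxylase promoter of the transgene expresses human MYCN in sympathoadrenal cells. In 4 mice panobinostat, an inhibitor of histone deacetylases, had been given as 2 doses of 5 mg/kg spaced 24 h apart, and 4 mice had received vehicle. Treatment began at about 6 weeks of age with tumours of 200 to 300 mm3, and harvest followed the second dose by 4 h. Each library came from 1 animal and held tumour and stroma together, so fewer cells of a type and less RNA per cell cannot be told apart.

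VEGF-A is the main signal for the growth and permeability of blood vessels and acts through Kdr (VEGF receptor 2) on endothelial cells. Flt1 (VEGF receptor 1) binds VEGF-A and VEGF-B tightly with weak signalling, partly as a soluble decoy, and Flt4 (VEGF receptor 3) with its ligand VEGF-C is best known from lymphatic vessels. Angiopoietin 1, made largely by perivascular cells, activates the receptor Tek (Tie2) and stabilises vessels, whereas angiopoietin 2, released by endothelial cells, can oppose it, and Tie1 is a partner of Tek without a well established ligand of its own. Neuroblastomas are often richly vascularised.

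For 3 of the receptor genes, Flt1, Kdr and Tek, the 250 bases before the RefSeq starts (GRCm38.p6, the assembly of mm10) are shown as examples so that the ETS cores can be seen. ETS factors are known regulators of endothelial genes. Capitals mark GGAA or its reverse complement TTCC.
Flt1, chr5:147726012-147726261, minus strand: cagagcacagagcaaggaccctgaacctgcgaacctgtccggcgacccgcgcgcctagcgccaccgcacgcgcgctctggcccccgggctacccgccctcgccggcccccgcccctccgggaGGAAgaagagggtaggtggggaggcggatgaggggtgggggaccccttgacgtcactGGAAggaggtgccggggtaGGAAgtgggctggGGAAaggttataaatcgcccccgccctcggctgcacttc
Kdr, chr5:75978456-75978705, minus strand: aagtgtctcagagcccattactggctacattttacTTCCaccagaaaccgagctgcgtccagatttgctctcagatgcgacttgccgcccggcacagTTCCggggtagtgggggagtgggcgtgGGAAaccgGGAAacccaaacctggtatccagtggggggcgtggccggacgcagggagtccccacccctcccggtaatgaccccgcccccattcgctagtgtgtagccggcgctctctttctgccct
Tek, chr4:94739039-94739288, plus strand: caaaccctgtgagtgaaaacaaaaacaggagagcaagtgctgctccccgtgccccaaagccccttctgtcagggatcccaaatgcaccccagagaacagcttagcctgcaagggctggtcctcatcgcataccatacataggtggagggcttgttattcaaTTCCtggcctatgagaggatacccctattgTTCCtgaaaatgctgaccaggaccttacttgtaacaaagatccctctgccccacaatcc
On both strands together the windows of Flt1, Kdr and Tek held 4, 4 and 2 such cores, against a median of 3 over 32851 mouse windows of the same length, 93.4% of which held at least 1. Among the windows not shown, that of Tie1 held 7 cores, the 2 windows of Vegfa 6 and 2, that of Flt4 2, and those of Vegfb and Vegfc 1 each. The hypoxia response core, ACGTG or GCGTG on either strand, occurred 1 time before Flt1, 2 times before Kdr and not in the Tek window, and 38.6% of all windows held it. The Flt1 window held 1 cAMP response element, TGACGTCA, which overlaps none of the capitals and was present in 1.55% of windows. RefSeq windows were matched for 8 of the 10 genes, the exceptions being Angpt1 and Angpt2.

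Depth ranged from 18664066 to 22235545 reads in panobinostat libraries and from 22055658 to 23830026 in vehicle libraries, and 1 CPM (count of reads scaled to library size) equalled 19.3 to 22.6 reads. Markers of the tumour's own lineage, 8 sympathoadrenal genes, summed to 891 to 1028 CPM with panobinostat and 1671 to 2527 CPM with vehicle, with 5 lower and none higher. Fibroblast (6 of 6 higher), macrophage (7 of 8), Schwann cell (6 of 6) and adipocyte (5 of 5) markers were higher with panobinostat, and each of these sums was higher in every panobinostat library than in every vehicle library. Without panobinostat libraries 3 and 4, 3 Schwann cell and 3 adipocyte markers were called. The panobinostat libraries also held adrenal cortex genes, at 39.6 to 2756 summed CPM against 9.21 to 11.4 with vehicle, and liver genes, at 17.6 to 9264 against 3.71 to 7.63. Pancreas acinar genes summed to 14.5 to 2864 CPM against 7.08 to 13.8, and kidney genes (2 of 8 listed) to 0.0448 to 648 against 0.265 to 2.22. Haemoglobin and other red cell genes summed to 461 to 9633 CPM with panobinostat and 2358 to 3381 with vehicle. The part of these cell types and organs in the results below was not tested.

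With panobinostat 3 of the 10 genes rose, the VEGF receptor gene Flt1, the Tie receptor gene Tek and the ligand gene Angpt1, and none fell. The changes were 1.68-fold for Flt1, 2.33-fold for Tek and 2.73-fold for Angpt1. Vegfa, the most abundant member per length, made no call. In the limma fit over 16157 tested genes, at an adjusted p of 0.05, 63.7% were called in either direction, 31.2% higher and 32.4% lower. The 3 higher of 10 is near this background, while 0 lower of 10 is below it. That absence is not particular to the members. None of 16 other endothelial markers, 15 endothelial transcription factor genes or 10 pericyte and smooth muscle markers was lower either. The members are also not independent, as the 5 receptor genes shared their highest and lowest vehicle library. At an unadjusted p under 0.05 4 members were higher and 0 lower, a threshold for which the share over all tested genes was not computed. With voom weights in limma 0 were lower, whereas with quantile normalization 1 was lower, Vegfc. The median log2 change of the members was 0.73, against -0.02 over all tested genes and 0.46 over 16 other endothelial markers. In 2 members the 4 panobinostat libraries all lay above the 4 vehicle libraries, where 28.5% of tested genes did so in that direction and 59.7% in either.

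**Figure D1:**
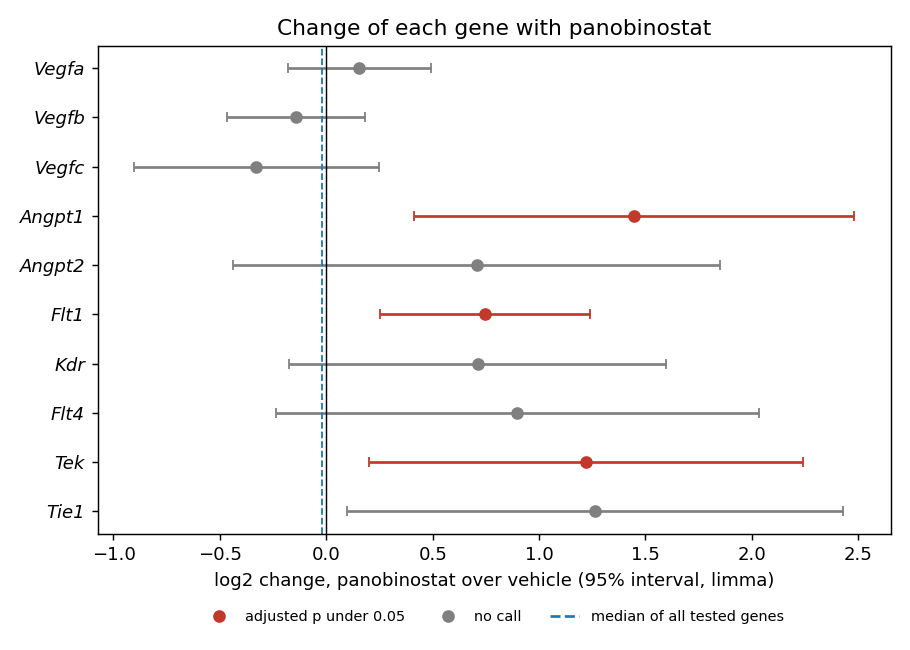
Log2 change (panobinostat over vehicle) of each gene on the x axis, with the 95% interval from limma, ligand genes above and receptor genes below. Flt1, Tek and Angpt1 (red) passed an adjusted p of 0.05, and the interval of Tie1, from 0.10 to 2.43, lies above 0 without a call after adjustment.

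Among the VEGF ligands, Vegfa (ENSMUSG00000023951, chromosome 17, 46016993 to 46032369, minus strand, mm10) had 101, 70.9, 92.7 and 116 CPM in panobinostat libraries 1 to 4, against 92.2, 89.6, 78.5 and 76.8 CPM in vehicle libraries 1 to 4. The groups overlapped, with panobinostat library 2 lowest of all 8 and panobinostat library 4 highest. The log2 change was 0.16 (SE 0.15, 95% interval -0.18 to 0.49, adjusted p = 0.383, limma), so the interval takes in no change. It was 0.29 (adjusted p = 0.0724) without panobinostat library 2, 0.05 without panobinostat library 4 and 0.01 without panobinostat libraries 3 and 4, and ran up to 0.32 with quantile normalization. Within the panobinostat group, libraries 2 and 4 also held the least and the most of the adrenal cortex genes (39.6 and 2756 summed CPM, with 722 in library 1 and 1013 in library 3). Liver genes ran in the same order (33.8, 17.6, 682 and 9264 summed CPM in panobinostat libraries 1 to 4). Pancreas acinar genes were also highest in library 4 (2864) but lowest in library 1 (14.5), and kidney genes were highest in library 3 (648). The vehicle libraries held less of the adrenal cortex genes (9.21 to 11.4 summed CPM) and liver genes (3.71 to 7.63) than panobinostat library 2, with more Vegfa. The part of these tissues in the Vegfa values was not tested.

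Vegfb (ENSMUSG00000024962, chromosome 19, 6982473 to 6987651, minus strand) encodes a ligand of Flt1 and had 28.3, 26.9, 27.3 and 25.0 CPM with panobinostat, against 25.4, 31.6, 25.7 and 37.5 CPM with vehicle. Its log2 change was -0.14 (SE 0.14, 95% interval -0.47 to 0.18, adjusted p = 0.402, limma), and the groups overlapped. It was -0.03 without vehicle library 4 and -0.02 with scaling to read totals, against -0.22 without vehicle library 1 and -0.26 with median centring. Vegfc (ENSMUSG00000031520, chromosome 8, 54077606 to 54187096, plus strand) was scarce, with 34, 25, 35 and 22 reads in panobinostat libraries 1 to 4, against 32, 46, 37 and 38 reads in vehicle libraries 1 to 4, and the groups overlapped. Its log2 change of -0.33 (SE 0.26, adjusted p = 0.283, limma) became a call after quantile normalization, where it was -0.99 (adjusted p = 0.0143), and was -0.21 without vehicle library 2.

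Of the VEGF receptor genes, Flt1 (ENSMUSG00000029648, chromosome 5, 147561604 to 147726011, minus strand) had 67.4, 58.3, 54.8 and 51.1 CPM with panobinostat, against 47.0, 41.6, 22.4 and 31.7 CPM with vehicle. Every panobinostat library lay above every vehicle library. Flt1 rose by 0.75 on the log2 scale (SE 0.22, adjusted p = 0.0140, limma). The call held without any 1 library (adjusted p from 0.00442 to 0.0401), but not in a test against a 1.5-fold change (adjusted p = 0.495). Values are per gene, so the soluble and the membrane forms of Flt1 are counted together.

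Kdr (ENSMUSG00000062960, chromosome 5, 75932827 to 75978458, minus strand), the principal receptor of VEGF-A, had 58.7, 49.0, 45.0 and 45.0 CPM with panobinostat, against 51.2, 41.8, 11.9 and 31.9 CPM with vehicle. Panobinostat library 1 was highest, vehicle library 3 lowest, and the groups overlapped through vehicle library 1. The log2 change of 0.71 (SE 0.39, adjusted p = 0.140, limma) was close to that of Flt1 with a larger error. Without vehicle library 3 it was 0.27 (adjusted p = 0.218), with library weights it was 0.35, and without vehicle library 1 it was 0.97 and passed (adjusted p = 0.0474).

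Flt4 (ENSMUSG00000020357, chromosome 11, 49609263 to 49652739, plus strand), the receptor of VEGF-C, had 26.1, 25.1, 25.8 and 22.1 CPM with panobinostat, against 35.3, 16.2, 4.59 and 11.8 CPM with vehicle. The 4 panobinostat libraries were nearly alike, and lay below vehicle library 1 and above the other vehicle libraries. The log2 change was 0.90 (SE 0.50, adjusted p = 0.146, limma), and without vehicle library 1 it was 1.37 and passed (adjusted p = 0.0109), against 0.39 without vehicle library 3 (adjusted p = 0.333).

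Of the angiopoietins, Angpt1 (ENSMUSG00000022309, chromosome 15, 42424723 to 42676977, minus strand), the activating ligand of Tek, had 6.25, 2.98, 4.28 and 2.98 CPM with panobinostat, against 2.94, 1.59, 1.44 and 0.638 CPM with vehicle. These values rest on 57 to 139 reads in the panobinostat group against 13 to 66 in the vehicle group, and the 4 panobinostat values lay above the 4 vehicle values, the nearest pair almost touching. Angpt1 rose by 1.45 (SE 0.46, adjusted p = 0.0204, limma). The call was lost without panobinostat library 1 (adjusted p = 0.0591), without panobinostat libraries 3 and 4 together (0.0711) and after quantile normalization (log2 change 0.79, adjusted p = 0.0923). An antisense gene on the other strand, Gm17473, shares 737 exon bases (14.2% of those of Angpt1), and because the strand setting of the counting is not given its reads cannot be told apart. Markers of pericytes and smooth muscle, cells that make angiopoietin 1, were higher too, with 7 of 10 called and sums of 970 to 2464 CPM with panobinostat against 402 to 805 CPM with vehicle, and their part was not tested.

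Angpt2 (ENSMUSG00000031465, chromosome 8, 18690263 to 18741562, minus strand), the endothelial antagonist, spread widely in both groups, with 45.3, 25.2, 23.1 and 11.1 CPM in panobinostat libraries and 29.9, 17.3, 6.67 and 11.9 CPM in vehicle libraries. The groups overlapped over most of their range. The log2 change was 0.71 (SE 0.51, 95% interval -0.44 to 1.85, adjusted p = 0.247, limma). Without panobinostat libraries 3 and 4 it was 1.25 (adjusted p = 0.0995), and without panobinostat library 4 or vehicle library 1 it was 1.06. It was 0.39 without panobinostat library 1 and 0.34 without vehicle library 3 (adjusted p = 0.552). Angpt2 lies within Mcph1 on the opposite strand and shares 0 exon bases with it.

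Of the Tie receptors, Tek (ENSMUSG00000006386, chromosome 4, 94739289 to 94874976, plus strand) had 22.0, 17.8, 16.4 and 17.4 CPM with panobinostat, against 17.3, 11.9, 3.44 and 5.31 CPM with vehicle. Vehicle library 1 reached into the panobinostat range, and the other vehicle libraries lay below it. Tek rose by 1.22 (SE 0.45, adjusted p = 0.0388, limma), close to the threshold. The call was lost without any 1 of panobinostat libraries 1 to 4 or vehicle libraries 3 and 4 (log2 change 0.82 to 1.27, adjusted p from 0.0634 to 0.104), without panobinostat libraries 3 and 4 together (0.109), and with library weights (log2 change 0.71, adjusted p = 0.0627), quantile normalization (0.0858) or median centring (0.0501).

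Tie1 (ENSMUSG00000033191, chromosome 4, 118471191 to 118490061, minus strand) had 76.0, 69.8, 58.7 and 51.8 CPM with panobinostat, against 62.0, 42.1, 8.71 and 21.3 CPM with vehicle. Its log2 change of 1.26 (SE 0.52) was as large as that of Tek but made no call (adjusted p = 0.0562, limma). It passed without vehicle library 1 (adjusted p = 0.00947) or 2 (0.0463), with voom weights (0.0432), with scaling to read totals (0.0437) and with quantile normalization (0.0420). It was 0.73 without vehicle library 3 (adjusted p = 0.0849) and 0.75 with library weights (adjusted p = 0.0795), and made no call there. Tek and Tie1 thus stand on either side of the threshold without having been shown to differ.

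**Figure D2:**
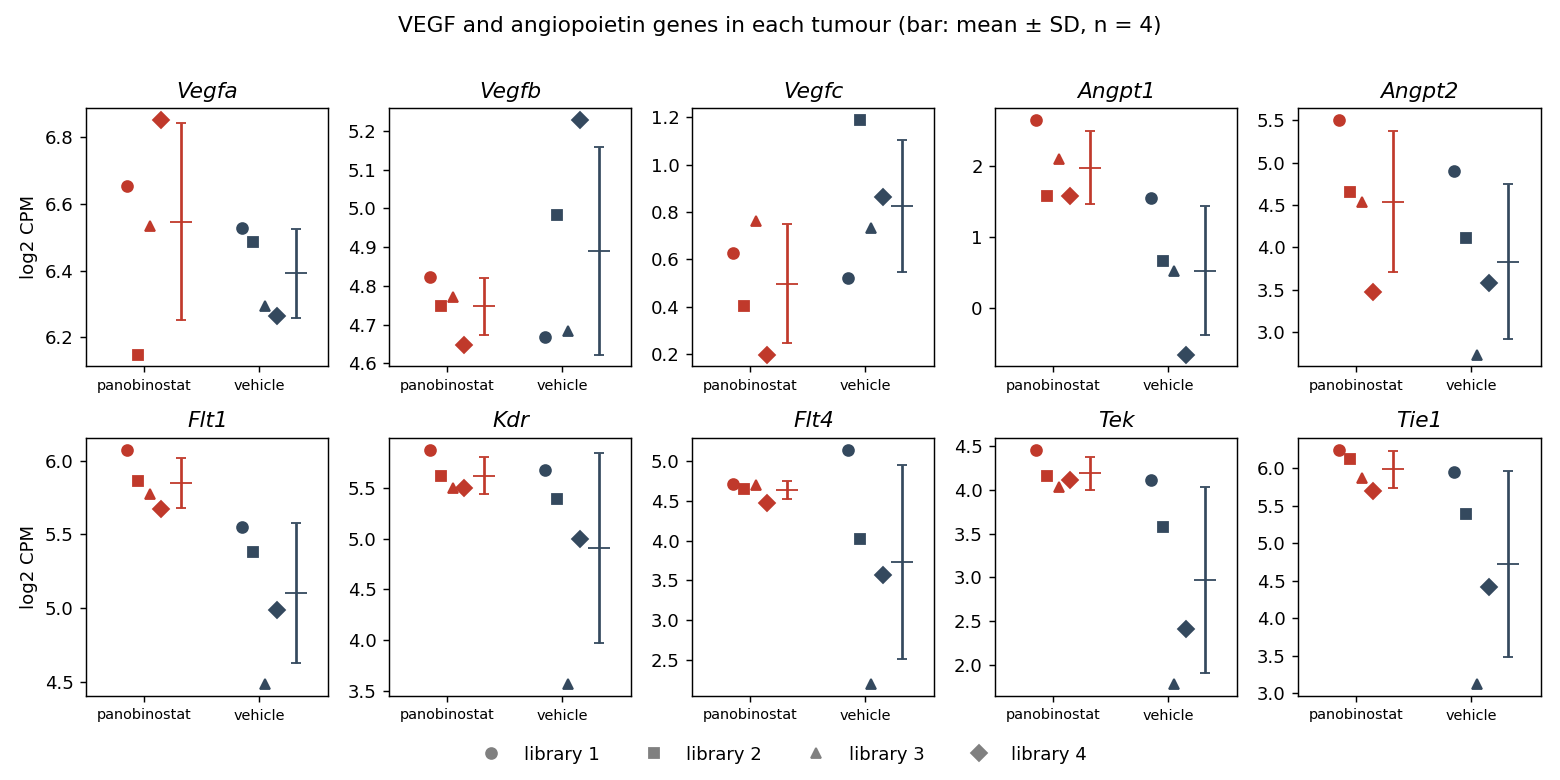
Deposited log2 CPM on the y axis for each gene, panobinostat libraries at left (red) and vehicle libraries at right (dark blue), with marker shape giving the library number and bars the mean ± SD (n = 4). Panobinostat values of the 5 receptor genes sit close together while vehicle library 3 lies lowest in each, and y axes differ between panels.

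Levels can be compared between genes as reads per kilobase of exon, scaled to library size as for CPM (RPKM). The length takes in all annotated exons of a gene, whichever transcripts were present, and the order of genes depends on it. It was 13504 bases for Flt1 and 9030 for Kdr, and before division by length Flt1 had more reads than Kdr in every panobinostat library. Vegfa averaged 22.2 ± 4.3 RPKM with panobinostat and 19.7 ± 1.8 RPKM with vehicle (mean ± SD, n = 4), and Vegfb 16.7 ± 0.85 and 18.7 ± 3.6 RPKM. These ligand genes overlapped each other in both groups and lay above all the receptor genes. The next was Tie1, at 13.0 ± 2.2 RPKM with panobinostat and 6.82 ± 4.8 RPKM with vehicle, followed in both groups by Angpt2, Kdr and Flt1. Kdr stood at 5.47 ± 0.71 RPKM with panobinostat and 3.79 ± 1.9 RPKM with vehicle. Tek (3.90 ± 0.53 RPKM) was above Flt4 (3.01 ± 0.23 RPKM) without overlap with panobinostat, whereas with vehicle they overlapped at 2.01 ± 1.3 and 2.06 ± 1.6 RPKM. The scarcest were Angpt1, at 0.787 ± 0.30 RPKM with panobinostat and 0.313 ± 0.18 RPKM with vehicle, and Vegfc, at 0.573 ± 0.10 and 0.725 ± 0.15 RPKM. With panobinostat these overlapped, and with vehicle Vegfc lay above Angpt1 in every library. Neighbours from Tie1 down to Tek overlapped with panobinostat, and those from Tie1 down to Vegfc overlapped with vehicle.

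The receptor genes differed more among vehicle tumours than among panobinostat tumours. The SD of log2 values was 0.25 (Tie1), 0.19 (Tek), 0.11 (Flt4), 0.18 (Kdr) and 0.17 (Flt1) with panobinostat, against 1.24, 1.06, 1.22, 0.94 and 0.47 in the same genes with vehicle. Over all tested genes the median SD was 0.16 with panobinostat and 0.30 with vehicle. From the lowest to the highest vehicle tumour Flt4 differed 7.68-fold, Tie1 7.11-fold, Tek 5.03-fold, Kdr 4.32-fold and Flt1 2.10-fold. Vehicle library 1 was the highest vehicle library and library 3 the lowest in all 5 receptor genes, and the same held for all 16 endothelial markers, whereas over all tested genes library 1 was highest for 25.3% and library 3 lowest for 30.4%. The endothelial markers, which include Pecam1, Cdh5 and Cldn5 but none of the 10 genes, had a median SD of 0.32 with panobinostat and 0.94 with vehicle. Vegfa did not share this spread, with an SD of 0.30 with panobinostat and 0.13 with vehicle, and Angpt2 was wide in both groups at 0.83 and 0.91. Spread was not tested.

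**Figure D3:**
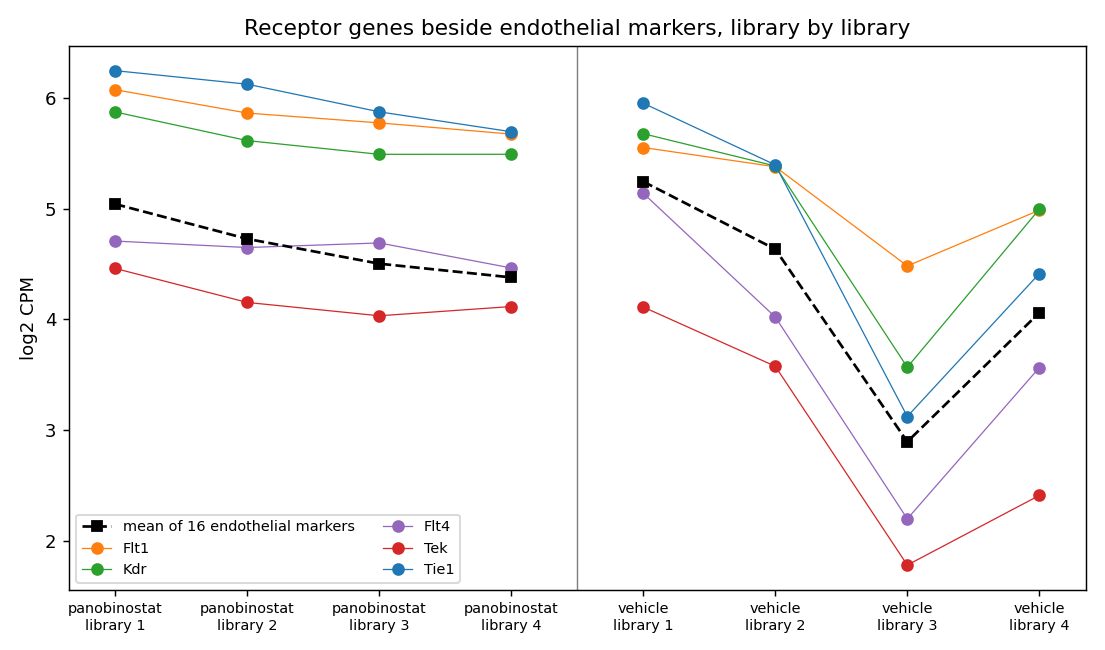
Deposited log2 CPM (y axis) of the 5 receptor genes and the mean over 16 endothelial markers (black, dashed) in each library, panobinostat at left and vehicle at right, with lines that only join points of 1 gene. The endothelial mean lies between 4.38 and 5.04 with panobinostat and between 2.90 and 5.25 with vehicle, and the receptor genes are lowest in the same vehicle library.

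Because endothelial marker levels differed between tumours, each gene was also set against the mean log2 value of the 16 endothelial markers in its own library. Of those markers 3 rose with panobinostat (Vwf, which encodes von Willebrand factor, at 1.69, SE 0.41, Cd34 at 1.43, SE 0.38, and the TGF-beta co-receptor gene Eng, named after its value was seen, at 0.97, SE 0.33), none fell and the other 13 were not called (limma, all genes tested). Without vehicle library 1, 6 of them were higher, and 2 were lower without vehicle library 3, with library weights or with quantile normalization. In the fit reported 31.2% of all tested genes were higher and 32.4% lower. Tie1 stood 1.32 ± 0.09 above this mean with panobinostat and 0.51 ± 0.26 above it with vehicle (log2, mean ± SD, n = 4), a difference of 0.81. Tek stood at -0.47 ± 0.15 with panobinostat and -1.24 ± 0.28 with vehicle, a difference of 0.77. In both genes the 4 panobinostat values lay above the 4 vehicle values (exact permutation test, two-sided, p = 0.0286, which is the minimum over 70 assignments). The p adjusted over the 10 genes was 0.143, so neither passed. At this minimum a gene cannot pass adjustment over 10 genes unless several others have a similarly small p. The adjusted result therefore decides nothing about Tek and Tie1. Flt4 differed by 0.44 (exact p = 0.0571), Flt1 by 0.29 (0.371), Kdr by 0.26 (0.0857) and Angpt2 by 0.25 (0.429), with overlapping groups. Angpt1 differed by 0.99 (exact p = 0.143), while Vegfa (-0.30), Vegfb (-0.60) and Vegfc (-0.78) were on the lower side with exact p of 0.629, 0.314 and 0.229. Over all settings tried the difference ran from 0.59 to 0.83 for Tek and from 0.71 to 0.99 for Tie1. The ranges of Kdr (0.16 to 0.44) and Flt4 (0.27 to 0.57) were about as narrow. Flt1 was 0.10 without vehicle library 1 and 0.52 without vehicle library 3. Kdr was 0.17 without vehicle library 1, 0.16 without panobinostat libraries 3 and 4 and 0.44 with quantile normalization, and Flt4 was 0.27 without panobinostat libraries 3 and 4. Angpt2 was 0.06 without panobinostat library 1 and 0.51 without panobinostat library 4, and Angpt1 was 0.65 without vehicle library 4 and 0.54 with quantile normalization. For the VEGF ligands, leaving out vehicle library 1 gave -0.60 (Vegfa), -1.02 (Vegfb) and -1.23 (Vegfc), and leaving out vehicle library 3 gave 0.11, -0.23 and -0.38 in the same order. Vegfa was also -0.14 without panobinostat library 2 and -0.50 without panobinostat library 4. After adjustment 0 of the 10 genes passed, and 2 had an exact p under 0.05 before it. The share of all tested genes that separate relative to the endothelial mean was not computed, so these 2 have no background beside them.

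Ratios between members within a library are not changed by a factor applied to the whole library, although quantile normalization moves them, and 7 were compared. The ratio of Tek to Kdr was 1.42-fold higher with panobinostat, at -1.43 ± 0.04 on the log2 scale against -1.94 ± 0.45 with vehicle (n = 4), without overlap between groups (exact permutation p = 0.0286, adjusted p = 0.200). This log2 difference of 0.51 was 0.29 without vehicle library 4 and 0.15 with quantile normalization. The ratio of Angpt2 to Angpt1, the opposing ligands of Tek, was 2.57 ± 0.52 with panobinostat and 3.31 ± 0.83 with vehicle (log2), a difference of -0.74 (exact p = 0.171, adjusted p = 0.4). It was -0.43 without vehicle library 4 and -0.31 with 1 CPM added. Tie1 to Tek differed by 0.04 (exact p = 0.83), Flt1 to Kdr by 0.04 (exact p = 1) and Flt4 to Kdr by 0.19 (exact p = 0.457). Vegfc to Vegfa (-0.48, exact p = 0.114) and Vegfb to Vegfa (-0.30, exact p = 0.286) were lower without passing. Without panobinostat library 4 these were -0.28 and -0.16, and with quantile normalization -1.31 and -0.56, while Vegfb to Vegfa was -0.14 without vehicle library 4. The sign was not stable for Flt1 to Kdr (-0.07 to 0.28 over the settings tried), Flt4 to Kdr (-0.04 to 0.40) and Tie1 to Tek (-0.09 to 0.40). None of the 7 passed after adjustment, and 1 had an exact p under 0.05 before it. At the minimum exact p of 0.0286 that ratio cannot pass adjustment over 7 unless several others are similarly small. The adjusted result therefore decides nothing about it.

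The co-receptors of VEGF, which present the ligand to Kdr and Flt4, moved apart. Nrp1 rose by 1.14 (SE 0.20, adjusted p = 7.92e-04) and Nrp2 fell by 1.12 (SE 0.11, adjusted p = 2.75e-05, both limma). Nrp1 had 1776 to 2455 reads in panobinostat libraries against 822 to 1637 in vehicle libraries, and Nrp2 had 3635 to 4202 against 7456 to 9436 likewise, with no overlap in either. The SD of log2 values with vehicle was 0.42 for Nrp1 and 0.19 for Nrp2, against a median of 0.94 over the endothelial markers. Which cells of the whole tumour carried these 2 changes was not tested. Pgf, which encodes placental growth factor, a ligand of Flt1, rose by 1.36 (SE 0.29, adjusted p = 0.00300, limma). Of the 6 genes in this group (ligands, neuropilins and the Tek phosphatase Ptprb) 5 were tested, 2 rose and 1 fell, with a median of 1.14, and Angpt4 stayed under the filter at 2 to 15 reads in panobinostat libraries and 4 to 7 in vehicle libraries. Over all tested genes 31.2% were called higher and 32.4% lower, which is the background for the counts in this list and those below.

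Genes that carry the receptor signal moved both ways, with 5 of 13 tested higher, 5 lower and a median of 0.26. Both counts are near the background of 31.2% higher and 32.4% lower over all tested genes. They are therefore not particular to this list. Pxn, which encodes the focal adhesion protein paxillin, rose by 2.03 (SE 0.13), while the kinase genes Src (-1.62, SE 0.19) and Ptk2 (-0.60, SE 0.08), the gene of focal adhesion kinase, fell. These genes are expressed in many cell types. The number called higher was 2 without panobinostat libraries 3 and 4, and 3 with median centring or without panobinostat library 2, panobinostat library 3 or vehicle library 2.

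Of 15 endothelial transcription factor genes 8 rose and none fell, and their median change was 1.21. Foxo1, whose product induces Angpt2 in endothelial cells, rose by 2.58 (SE 0.32, adjusted p = 1.16e-04, limma), Klf2, a flow-responsive factor, by 2.58 (SE 0.42) and Lmo2, a partner of Tal1 and Gata factors, by 1.73 (SE 0.30). Foxo1 had 1002 to 1330 reads in panobinostat libraries against 120 to 357 in vehicle libraries. The other 7, given because they made no call, were Erg (-0.03), Fli1 (0.47), Elk3 (0.43), Tal1 (0.69), Sox17 (0.25), Sox18 (0.41) and Gata2 (-0.85). Erg, Fli1 and Elk3 encode ETS factors, and Ets1, named as a further ETS gene of the list, rose by 1.21 (SE 0.36). Several of the 15 genes are also expressed outside endothelium. With library weights, with median centring or without vehicle library 3, 1 of the 15 was lower.

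In the sprouting list, which holds tip and stalk cell genes, 7 of 12 rose and 3 fell, with a median of 1.04. The Notch ligand gene Jag1 rose by 1.59 (SE 0.17), the netrin receptor gene Unc5b by 1.30 (SE 0.17) and Notch1 by 2.11 (SE 0.28). Chosen for mention because they fell, the other 3 were the tip cell genes Esm1 (-1.84, SE 0.25) and Apln (-1.23, SE 0.29) and the endothelial Notch receptor gene Notch4 (-1.36, SE 0.32), each without overlap between groups. Esm1 had 30 to 48 reads in panobinostat libraries against 109 to 196 in vehicle libraries.

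Hypoxia pathway genes, whose factors drive Vegfa in many cells, had a median log2 change of 0.03, with 5 of 15 higher and 3 lower. The number higher is near the background, since 31.2% of all tested genes were higher and 32.4% lower. The oxygen sensor gene Egln2 fell by 1.12 (SE 0.12), Arnt, the HIF partner gene, rose by 0.67 (SE 0.13) and Bnip3, a mitophagy gene, by 1.02 (SE 0.24). Without panobinostat libraries 3 and 4 the counts were 2 higher and 1 lower. Of 10 genes for inhibitors of angiogenesis 8 rose and 1 fell, with a median of 2.15. Col18a1, the source of endostatin, rose by 2.26 (SE 0.21, adjusted p = 2.72e-05, limma), Serpinf1, the gene of pigment epithelium-derived factor, by 2.93 (SE 0.40), and Vash1, known as an endothelial feedback inhibitor, fell by 1.31 (SE 0.09). The vehicle SD of Vash1 was 0.10 (log2), against a median of 0.94 over the endothelial markers, and the cells behind its fall were not tested. Most of the 10 inhibitor genes are made by fibroblasts, macrophages or platelets as well. Fibroblast markers summed to 7754 to 13868 CPM with panobinostat against 1217 to 4378 CPM with vehicle, with their part not tested. With library weights, with median centring, or without panobinostat library 2 or vehicle library 4, 2 of these genes were lower.

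**Figure D4:**
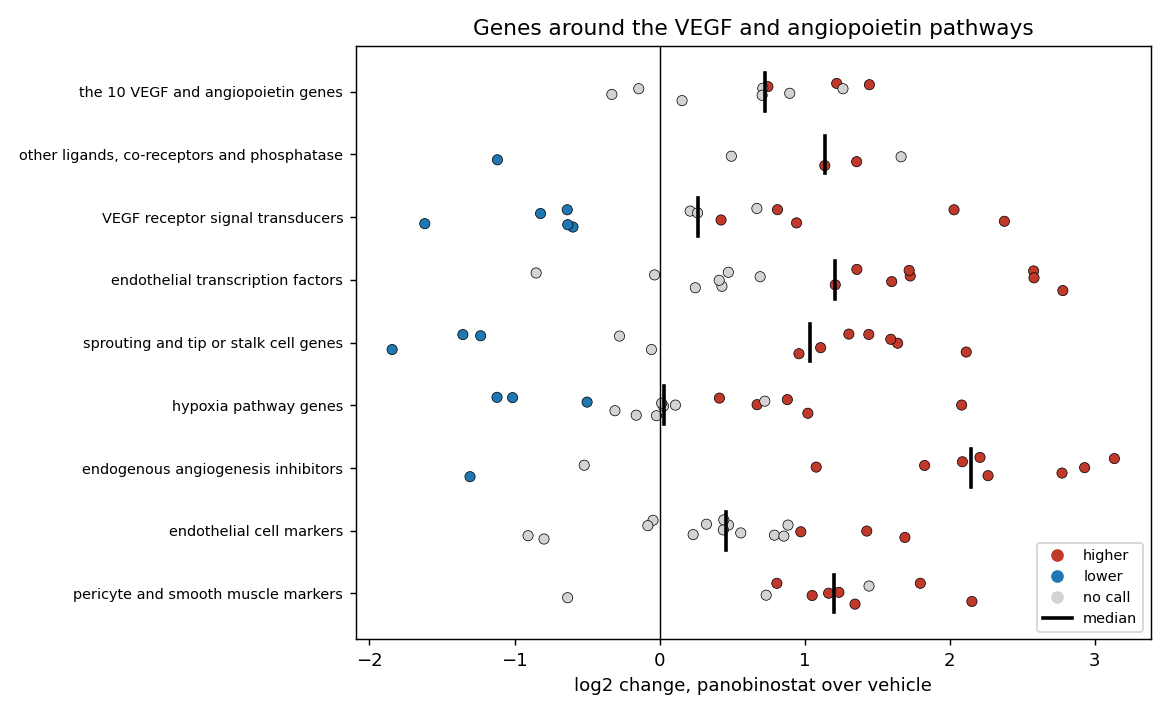
Log2 change (panobinostat over vehicle, x axis) of each tested gene of the 10 members and 8 related lists, with red for higher, blue for lower, grey for no call and a black bar for each median. The medians run from 0.03 for hypoxia genes to 2.15 for angiogenesis inhibitors, with the 10 members at 0.73.

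Likeness to the members was measured as Pearson's r of log2 values over the 8 libraries, which share the treatment contrast and 1 set of library sizes, and is given as a description. Nearest to Tek were Sorbs3, Tns1 and Scarf1 (r = 0.996, 0.996 and 0.993), and nearest to Kdr were Plpp1, the endothelial gene Mmrn2 and Tead4 (r = 0.986, 0.981 and 0.981). Angpt2 was nearest to Exoc3l4, Cyp26b1 and Mcl1 (r = 0.976, 0.967 and 0.965). For Vegfa the nearest were Rmdn2, Tmem56 and Me3, at lower values (r = 0.919, 0.915 and 0.904).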

How the data were processed

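RNA sequencing libraries of 8 whole tumours were used, 4 per group by the labels. Per the submitters' processing notes CASAVA 1.8.2, TopHat2, HTSeq, limma and mm10 were used, with no roles given. The sources used here do not give the annotation, strand setting or filter. The authors deposited 1 log2 value per gene and library, which the values show to be log2 CPM with 0.5 reads added: back-calculated reads were whole numbers for 100% of values (tolerance 0.001 read). CPM, reads and RPKM (union of GENCODE M21 exons, the mm10 assembly) were computed from them. Symbols were matched for 17228 genes and not for 260.

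A filter of 1 CPM or more in 4 or more libraries kept 16157 genes and removed 1331, and limma 3.58.1 (R 4.3.3) was fitted to the rest (eBayes with a variance trend, no covariate), Benjamini-Hochberg adjusted, threshold 0.05. All 10 members passed this filter. The fit was also run on simulated counts with few changed genes and the same dispersion in both groups. That setting has neither the many changes of these data nor the wider vehicle spread of the receptor genes, so it does not cover their calls. Relative levels and ratios used two-sided exact permutation tests in scipy 1.17.1. Replicate numbers only name libraries, and nothing says which animals shared a litter or a processing batch. The sample labels also carry numbers, which are lower for every vehicle library than for every panobinostat library. What these numbers stand for is not given, so anything that follows their order cannot be told apart from treatment. Alternatives changed the filter, pseudocount, variance model, library weights, scaling, threshold or libraries. The members and the 19 other lists were chosen with earlier results of these data known. Named genes are the members, the 3 smallest adjusted p in each pathway list, the 2 smallest in each marker list, and the 3 genes most like Vegfa, Kdr, Tek and Angpt2; other genes given with a change are marked where named. Counting error limits genes with few reads such as Vegfc and Angpt1.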

Additional observations from a re-analysis of the deposited data

Results flagged for a closer look

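A single library stood apart from the other 3 of its group in 3 of 56 groups of 4 values (members, relative levels, ratios and the endothelial mean) by Dixon's criterion, which chance meets in about 5% of groups. Tek relative to the endothelial markers was -1.65 in vehicle library 4, against -1.13 to -1.06 in the other vehicle libraries. The log2 ratio of Flt1 to Kdr was 0.92 in vehicle library 3, against -0.12 to -0.01 in the others. The log2 ratio of Flt4 to Kdr was -0.54 in vehicle library 1, against -1.43 to -1.36 in the others.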

How the results depend on the processing

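No member reversed its direction under any of the 21 alternatives tried (20 for Vegfc and Angpt1, which a filter of 5 CPM removes). Of the 3 calls, that of Flt1 was lost under 2 alternatives, the adjusted p of 0.01 and the test against a 1.5-fold change, that of Angpt1 under 5 and that of Tek under 12. The count of higher members was 0 at an adjusted p of 0.01 and 0 against a 1.5-fold change, 1 without panobinostat libraries 3 and 4, and from 1 (without panobinostat library 1) to 6 (without vehicle library 1) with each library left out in turn. The count of lower members was 1 with quantile normalization, which was Vegfc. Over all tested genes 2802 were higher and 2186 lower against a 1.5-fold change, and 5048 and 5241 in the fit reported. Scaling moved the median log2 change of all tested genes to -0.14 with median centring or quantile normalization and to 0.10 with read totals, against -0.02 as reported. Relative to endothelial markers the signs of 9 genes held in all 15 settings, while Vegfa ran from -0.67 to 0.11, and the signs of 4 of the 7 ratios held in 12 settings. With a library left out the smallest exact p is 0.0571, so no call could be made there. No paired analysis was possible because the labels give no replicate number shared by the groups. Depth limits Vegfc and Angpt1, which had as few as 22 and 13 reads.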

Other observations

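Lymphatic endothelial markers, the cells in which Flt4 is best known, did not share a direction: 2 of 6 were called higher and 2 lower (limma). Their median log2 change was 1.34. The number higher was 1 without any 1 of panobinostat libraries 1 to 4 or vehicle libraries 2 to 4, and 4 without vehicle library 1. Both counts of 2 are near the background of 31.2% higher and 32.4% lower over all tested genes. Prox1, the lymphatic master regulator that is also made by neuroblasts, fell by 2.14 (log2, SE 0.20), with 1627 to 2308 reads in panobinostat libraries against 6978 to 12607 in vehicle libraries, and Pdpn, the podoplanin gene, fell by 1.17 (SE 0.28). Reln, Ccl21a, Lyve1 and Mmrn1 were named after their values were seen. Reln rose by 1.46 (SE 0.41), and Ccl21a rose with 52 to 112 reads in panobinostat libraries against 0 to 105 in vehicle libraries. Lyve1 (log2 change 1.23, SE 1.35), with 195 to 457 reads in panobinostat libraries against 8 to 1862 in vehicle libraries, was not called. Mmrn1 had a log2 change of 2.26 (SE 1.00, adjusted p = 0.0740, limma) and was not called either. Without panobinostat libraries 3 and 4, 0 of these genes were higher and 1 was lower.

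Among mural cell genes, Cspg4, which encodes the pericyte proteoglycan NG2, rose by 2.15 (SE 0.17) and Rgs5, a pericyte regulator of G protein signalling, by 1.8 (SE 0.26, adjusted p = 2.91e-04, limma), each without overlap between groups. Rgs5 had 6362 to 14670 reads in panobinostat libraries against 2341 to 4749 in vehicle libraries. Of the 10 mural markers 7 rose and none fell, with a median of 1.20, and 1 was lower without vehicle library 3. Red cell genes made no call in 5 of 5 cases, while without panobinostat library 1, which held 9633 of their summed CPM, all 5 were lower.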
